A study of Mus musculus with 2 samples.

Results

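Crypt stem cell and Wnt target genes were examined in RNA of colon from control mice and from mice bred to lack the prostaglandin E2 receptor EP4 in the epithelium. The set held 10 genes, listed by name with earlier results of these data known: Lgr5, Ascl2, Smoc2 and Olfm4 as stem cell genes, Axin2, Rnf43 and Znrf3 as feedback inhibitors of Wnt signaling, Sox9 and Myc as transcription factors, and Ephb2 as a receptor of the crypt. Of these, 9 genes had a matched probe and all 9 had a value, among 22909 genes with a probe and 14679 genes with a value in the whole series. No probe was matched to Olfm4, so it has no value here. The 9 genes were read by 16 probes, of which 14 were well above background on both arrays and 2 on neither.

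The study used whole colon of C57BL/6 mice, with an age of 8 weeks given in the methods. Control mice carried Villin-Cre alone, and EP4 cKO mice carried Villin-Cre and EP4flox/flox. Both groups thus carried the Cre recombinase, which the Villin promoter expresses in the intestinal epithelium, so that cells of the stroma keep the receptor. RNA from 3 pools of colon was combined for each genotype and hybridized to 1 Agilent array with a single dye. With 1 array per genotype no value has a replicate check, no p-value is given, and every difference describes these arrays only. The processed signal of each array was scaled to a trimmed mean of 2500, and values are given as this normalized signal or as the log2 ratio of EP4 cKO over Villin-Cre.

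In the intestine, Wnt ligands bind Frizzled and Lrp5 or Lrp6 receptors at the crypt base, which lets β-catenin enter the nucleus and switch on target genes with TCF/LEF factors. R-spondins strengthen this signal through Lgr5 and its relatives by removing RNF43 and ZNRF3, membrane ubiquitin ligases that take Frizzled off the cell surface. The Wnt signal induces its own inhibitors (Axin2, Rnf43 and Znrf3), and it is needed to keep stem cells and dividing progenitors at the bottom of the crypt.

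Ptger4, the gene of EP4, had a signal of 6227 in the sample labelled Villin-Cre and 5661 in that labelled EP4 cKO. Its log2 ratio was -0.14, and its dimmer probe had a log2 ratio of 0.59. Its signal was therefore not lower by 2-fold on the array labelled EP4 cKO, so the directions given below stand only as far as the array labels do. Where these probes lie relative to the floxed part of the gene was not analysed here. Of 56593 probes, 45.4% in the sample labelled Villin-Cre and 51.6% in that labelled EP4 cKO were well above background, and no spot was saturated. The median log2 ratio was -0.10 over all genes with a value and -0.15 over the 12808 genes well above background on both arrays. Genes with several probes had a median SD of 0.16 between their probes, which is used below as a yardstick of measurement error and holds no variation between mice. All 9 markers of the epithelium were well above background on both arrays, whereas none of 4 enteric glia markers was well above background on either array. Fibroblast markers differed most, with a summed signal of 13274 in the sample labelled Villin-Cre and 454 in that labelled EP4 cKO over 6 genes.

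The stem cell genes had lower signals on the array labelled EP4 cKO, although Ascl2 and Smoc2 turned above 0 with scaling to the E1A spike-in spots (described below). Where signals are written as one against the other, the array labelled Villin-Cre comes first. Lgr5, the R-spondin receptor that marks cycling stem cells at the crypt base, had a signal of 1541 in the sample labelled Villin-Cre and 723 in that labelled EP4 cKO. This was 2.13-fold lower, a log2 ratio of -1.09 with an SD of 0.21 by the error model of the scanner software, which covers the measurement on the array only. In whole tissue, fewer cells of a type and less RNA per cell cannot be told apart.

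Ascl2, a transcription factor that maintains the stem cell state, had a signal of 10650 against 5587, a log2 ratio of -0.93. Smoc2, a secreted matricellular protein found in the stem cell signature and also made by fibroblasts, had 2 probes. The brighter probe had a signal of 15004 against 8311 and a log2 ratio of -0.85. The dimmer one had 4333 against 2451 and a log2 ratio of -0.82. The probes of Smoc2 thus differed from each other by less than the spread between probes, and both were lower on the array labelled EP4 cKO. Beside Smoc2, Dcn (decorin, a matrix proteoglycan of fibroblasts) had a signal of 6006 against 110, a log2 ratio of -5.77. The part of fibroblast RNA in the Smoc2 difference was not tested.

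The feedback inhibitors of Wnt signaling differed little under the trimmed mean scaling, but their signs turned with scaling to the 75th percentile and they stood between 0.90 and 0.98 with E1A scaling. Axin2, a scaffold of the β-catenin destruction complex and a direct Wnt target, had a signal of 825 in the sample labelled Villin-Cre and 790 in that labelled EP4 cKO, a log2 ratio of -0.06. Its other probe, at 35.5 against 21.0, was dim on both arrays (not well above background) and gives no ratio. Rnf43 had a signal of 7674 against 7271, a log2 ratio of -0.08. Both genes lay within the spread between probes of a log2 ratio of 0.

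Znrf3, the paralog of Rnf43, had 3 probes, which belong to 2 transcript records. The brightest had a signal of 679 against 613 and a log2 ratio of -0.15. The next had 259 against 209 and a log2 ratio of -0.31. The dimmest, at 99.2 against 44.6, was dim on both arrays. Both probes of Znrf3 that could be read thus had higher ratios than every probe of the stem cell genes.

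**Figure D1:**
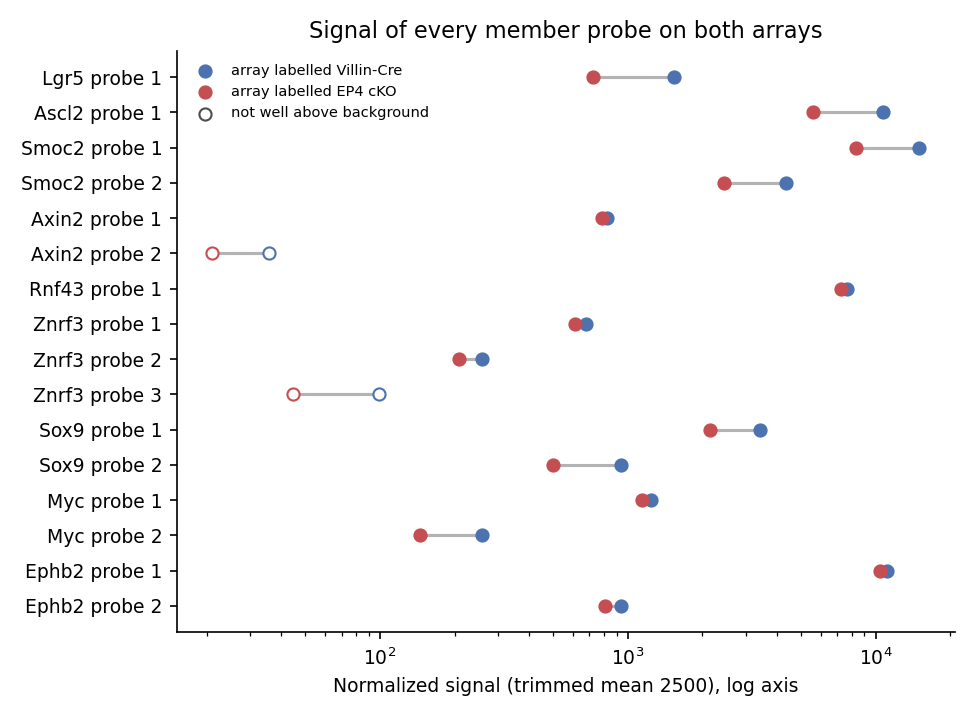
Normalized signal (log axis, arrays scaled to a trimmed mean of 2500) of the 16 probes of the 9 genes on the array labelled Villin-Cre and the array labelled EP4 cKO, with open circles where a signal was not well above background. The lines are long for Lgr5, Ascl2, Smoc2, Sox9 and the dimmer Myc probe and short for Axin2 probe 1, Rnf43 and Ephb2. With scaling to the E1A spike-in spots, the order of the arrays turns for the brightest probe of all genes but Lgr5.

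Sox9, a transcription factor of crypt progenitors, was lower on the array labelled EP4 cKO with both probes, a direction that turned with E1A scaling. The brighter probe had a signal of 3417 against 2149 and a log2 ratio of -0.67, and the dimmer one had 934 against 498 and -0.91. With its brighter probe, its ratio lay between those of the stem cell genes and those of the feedback inhibitors.

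Myc, a transcription factor that drives cell growth and a Wnt target, gave different values with its probes. The brighter probe had a signal of 1236 against 1142 and a log2 ratio of -0.11. The dimmer had 259 against 145 and a log2 ratio of -0.84. The dimmer probe fell in the dimmest of 10 equal classes of probes by brightness, whose median log2 ratio was -0.50, so that it stood at -0.34 relative to probes of like signal. The value of Myc therefore depends on the probe.

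Ephb2, a receptor tyrosine kinase that positions cells along the crypt, had a signal of 11093 against 10375 and a log2 ratio of -0.10. Its dimmer probe, from another transcript record, had 935 against 807 and a log2 ratio of -0.21. Neither probe stood apart from the median of all genes by more than the spread between probes.

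Of the 9 genes, 1 (Lgr5) was lower by more than 2-fold, against 6.26% of all genes well above background on both arrays. Lgr5 was past 2-fold in 3 of 8 other settings (the filters on dim probes and the mean of all probes). These cannot change the value of its 1 probe, so they are no check of it. It was not with scaling to the 75th percentile, normexp, loess, the trimmed mean over all spots or E1A scaling. At 1.5-fold, 4 genes were lower (Lgr5, Ascl2, Smoc2 and Sox9), against 18.5% of these genes. Without Sox9 this count was 3 with scaling to the 75th percentile, normexp, loess and the trimmed mean over all spots, and with E1A scaling 0 genes were lower and 5 higher past 1.5-fold. None was higher past either threshold in any other setting. All 9 log2 ratios were below 0, as were 63.0% of these genes, but the sign of Axin2, Rnf43, Znrf3, Myc and Ephb2 turned with scaling to the 75th percentile, and that of all but Lgr5 with scaling to the E1A spike-in spots. The median of the 9 genes was -0.15, against -0.15 for all genes well above background on both arrays, but -0.48 when the probes of each gene were averaged, the value of Myc in that setting. Within the set, the stem cell genes had a median of -0.93 and the feedback inhibitors one of -0.08.

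Ratios depended on brightness over the whole array, with a median log2 ratio of -0.50 in the dimmest of the 10 classes and -0.04 in class 9. Members were therefore also set against probes of like signal. Lgr5 stood at -0.90 relative to the median of its class, in which 4.97% of probes were lower by more than 2-fold. Ascl2 stood at -0.85, and the probes of Smoc2 at -0.82 and -0.70. The values for Sox9 were -0.55 and -0.67. Axin2, at 0.18, Rnf43, at 0.01, and the brighter Znrf3 probe, at 0.09, were not below the median of their classes. The same held for the brighter Myc probe at 0.08, whereas the Ephb2 probes stood at -0.06 and -0.02.

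**Figure D2:**
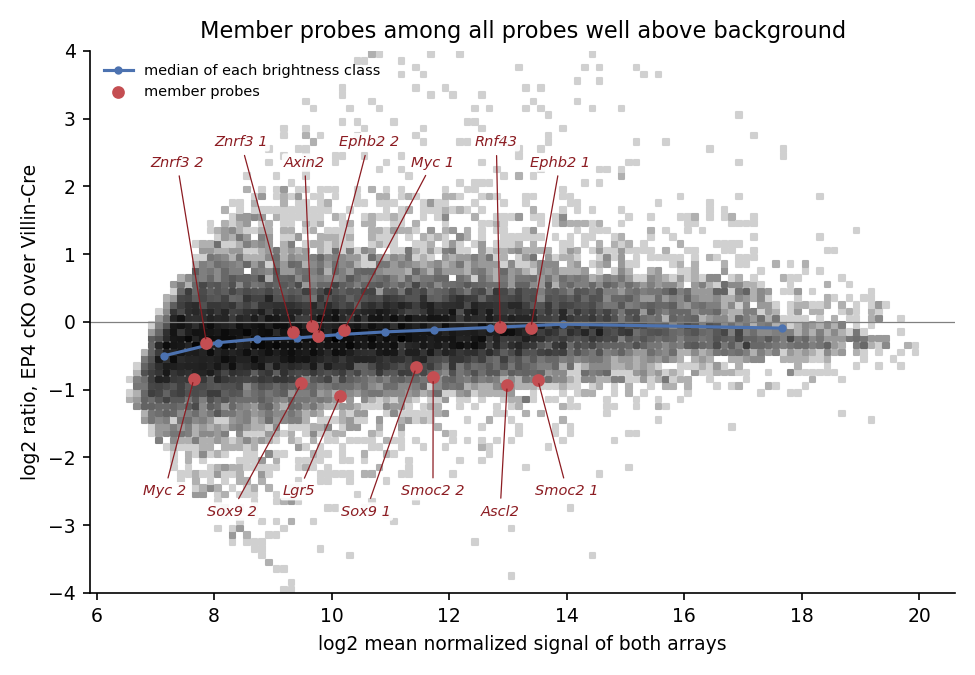
Log2 ratio of EP4 cKO over Villin-Cre against the log2 mean normalized signal for all probes well above background on both arrays (grey, darker where more probes lie, with the ratio axis ending at 4 in both directions), with the 14 member probes in red, numbered from the brightest where a gene has several. The blue line joins the median of each brightness class, which runs from -0.50 to -0.04, and the probes of Lgr5, Ascl2, Smoc2 and Sox9 and the dimmer Myc probe lie furthest below it under the trimmed mean scaling. Scaling to the E1A spike-in spots lifts all points by 1.04.

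A single scaling factor cannot change the distance between genes on the same arrays, nor did the filters on dim probes change it for these genes. The lowest of the feedback inhibitors (Znrf3) lay 0.71 above the highest of the stem cell genes (Smoc2) on the log2 scale. With normexp, loess and the mean of all probes, which can change it, this distance ran from 0.61 to 0.80, and that between the medians of the groups from 0.85 to 0.93. Over all settings and relative to the median of all genes well above background on both arrays, Lgr5 ran from -0.94 to -0.73. The corresponding ranges were -0.86 to -0.78 for Ascl2, -0.79 to -0.69 for Smoc2 and -0.64 to -0.51 for Sox9. They were 0.09 to 0.15 for Axin2, -0.03 to 0.07 for Rnf43, -0.08 to 0.08 for Znrf3 and -0.06 to 0.05 for Ephb2. Myc had the widest range, from -0.32 to 0.07, its lowest value coming from the mean of its probes.

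The direction itself depended on the scaling. The 8 probes for E1A spike-in RNA, a control supplied by the maker of the arrays, had a raw log2 ratio between -0.77 and -0.51, and whether and how this RNA was added is not given in the sources used here. Scaling to them, a setting chosen after seeing the data, raised every ratio measured on both arrays by 1.04 and put Lgr5 at -0.05, Ascl2 at 0.11, Smoc2 at 0.19 and Sox9 at 0.37. Axin2 then stood at 0.98 and Znrf3 at 0.90. The median of all genes moved to 0.88 under this scaling.

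**Figure D3:**
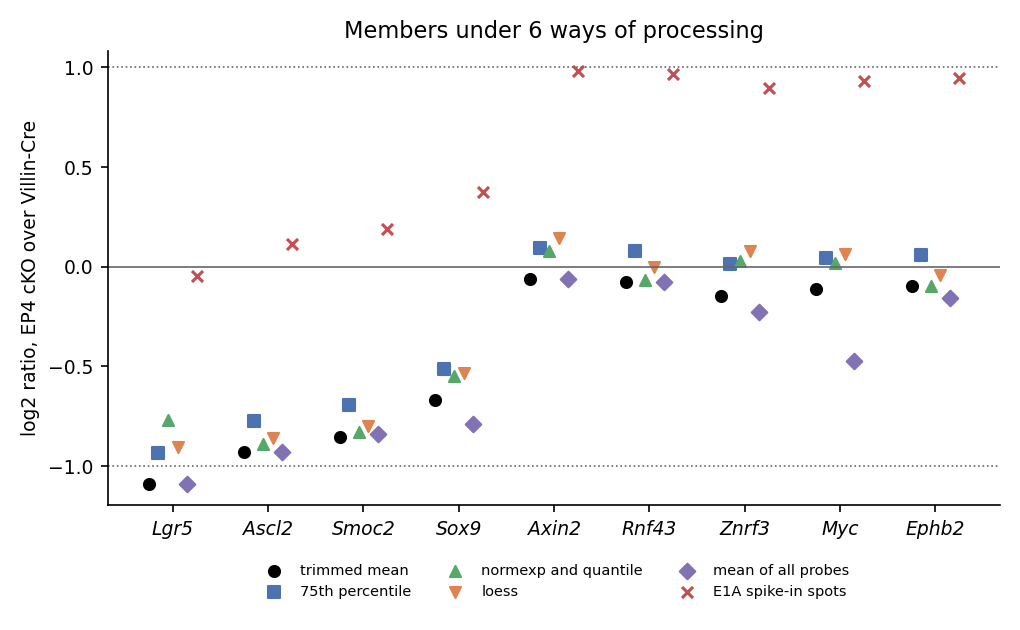
Log2 ratio of EP4 cKO over Villin-Cre for the 9 genes under 6 ways of processing, with dotted lines at 2-fold. Lgr5, Ascl2, Smoc2 and Sox9 lie below the other genes within each way of processing, which for the single scaling factors (trimmed mean, 75th percentile and E1A) is the same order by construction, but with scaling to the E1A spike-in spots Lgr5 is near 0 at -0.05 and all others are above 0.

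Promoter sequences of these genes were compared for the core of a TCF/LEF site, searched as CTTTGAT or CTTTGAA on both strands in windows of 300 bases (250 before and 50 after the start of a gene) from RefSeq on GRCm38.p6. The table held 6 windows for 5 of the genes (Ephb2, Ascl2, Rnf43, Axin2 and Olfm4), and entries for Lgr5, Smoc2, Znrf3, Sox9 and Myc were not matched. None of the 6 windows held either motif, against 2842 of 32851 (8.65%) of all promoter windows. No match says only that these letters are not in this window. The 250 bases upstream of the start are shown for a stem cell gene that was lower on the array labelled EP4 cKO (Ascl2, chr7:142969265-142969514, minus strand) and for a feedback inhibitor near 0 (Axin2, chr11:108920099-108920348, plus strand), in lower case throughout because no motif was found to mark.
Ascl2: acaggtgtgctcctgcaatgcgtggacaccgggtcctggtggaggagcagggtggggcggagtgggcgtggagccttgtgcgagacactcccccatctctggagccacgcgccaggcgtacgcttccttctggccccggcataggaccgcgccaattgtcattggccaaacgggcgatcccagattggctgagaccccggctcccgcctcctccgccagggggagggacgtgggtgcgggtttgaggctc
Axin2: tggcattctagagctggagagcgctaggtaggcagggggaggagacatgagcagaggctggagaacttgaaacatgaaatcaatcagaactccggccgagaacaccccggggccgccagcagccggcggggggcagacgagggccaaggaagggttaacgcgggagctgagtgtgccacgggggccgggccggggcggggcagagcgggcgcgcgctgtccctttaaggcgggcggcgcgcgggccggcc
Both stretches are rich in G and C, with 67.6% for Ascl2 and 69.2% for Axin2.

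Other genes of the Wnt pathway were read from lists grouped by role, whose medians below 0 all turned above 0 with scaling to the E1A spike-in spots. Over all genes with a value, bounds for dim probes included, 7.98% were lower and 4.88% were higher by more than 2-fold, and with scaling to the 75th percentile these shares were 6.27% and 6.42%. Scaling to the E1A spike-in spots gave 2.30% and 39.7%. Without the filter on dim probes, the shares were 31.7% and 5.12%. Counts past 2-fold below are those of the trimmed mean scaling with this filter.

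Most Wnt ligands could not be read, since 13 of 19 were dim on both arrays. The other 6 had a median log2 ratio of -0.48, which was 0.03 after loess, with 1 lower by more than 2-fold and 0 higher. This was Wnt8b, at 397 in the sample labelled Villin-Cre and 130 in that labelled EP4 cKO, a log2 ratio of -1.61 that was no longer past 2-fold with normexp and quantile normalization or with E1A scaling. None of the 4 R-spondin genes was well above background.

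Among R-spondins, Wnt secretion factors and receptors, 14 of 23 genes had a value, with a median of -0.46, 2 lower by more than 2-fold and 0 higher. The Frizzled receptor genes Fzd6 (564 against 124, log2 ratio -2.19) and Fzd4 (484 against 166, log2 ratio -1.55) were those past 2-fold, the first in all settings but normexp and the second in all but normexp and E1A scaling. Lgr4, the R-spondin receptor expressed along the whole crypt and a relative of Lgr5, was named after its values were seen. It had a signal of 9306 against 8884 and a log2 ratio of -0.07 with its brighter probe, and -0.91 with its dimmer one.

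Of 14 secreted and membrane inhibitors of Wnt signaling, 5 had a value. Their median of 0.00 is a bound set to 0, and it was -0.40 over the 4 genes well above background on both arrays. Sfrp5, a soluble Frizzled-like inhibitor, was lower at 336 against 139 (log2 ratio -1.27). Kremen1, a co-receptor of Dickkopf inhibitors, was lower at 3345 against 1622 (log2 ratio -1.04). Sfrp5 was past 2-fold in 5 of 8 other settings and Kremen1 in 2 of 8.

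The cytosolic relay and destruction complex had values for all 16 genes, with a median of -0.30 and a range from -0.90 to 0.30. None was past 2-fold, and 13 of the 16 were below 0, as were 57.5% of all genes with a value. With scaling to the 75th percentile, 10 of the 16 and 45.7% of all genes were below 0. Ctnnb1, the gene of β-catenin, had a signal of 22870 against 28222 and a log2 ratio of 0.30 with its brighter probe, and -0.45 with its dimmer one, so that its probes disagreed in sign.

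TCF/LEF factors and their nuclear partners had a median of -0.30 over 12 of 13 genes, with 1 lower by more than 2-fold and 0 higher. This was Tle3, a co-repressor of the Groucho family, at 3294 against 1009 (log2 ratio -1.71), past 2-fold in all settings but E1A scaling. Tcf7l2, the TCF factor of the intestinal epithelium, was named after its values were seen. It had a signal of 14350 against 22393, a log2 ratio of 0.64, and its 4 probes lay between 0.39 and 0.64.

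Other Wnt target genes, 16 of 19 with a value, had none past 2-fold in either direction under the trimmed mean scaling. With E1A scaling 7 were higher and 0 lower past 2-fold, and without the filter on dim probes 3 were lower and 1 higher. Cd44, a hyaluronan receptor named after its values were seen, was at 0.96 and past 2-fold with scaling to the 75th percentile, loess, the trimmed mean over all spots and E1A scaling. The median was 0.00 because bounds of dim probes were set to 0, and it was -0.18 over the 13 genes well above background on both arrays. Of those well above background the lowest was Lef1 at -0.97 and the highest Cd44 at 0.96, so that these targets spread to both sides. Lef1, named after its values were seen and also held in the TCF/LEF list, was at -0.07 with normexp and -0.34 after loess. Jun, also named after its values were seen, was at -0.94, with -0.95 under normexp and -0.91 after loess. Ccnd1, the gene of cyclin D1, had a signal of 6611 against 7894, a log2 ratio of 0.26. Ephb3, the receptor most like Ephb2, was named after its values were seen and had a signal of 51943 against 29347. Its log2 ratio was -0.82, against -0.10 for Ephb2. The remaining ephrin-B ligands and EphB receptors, 5 of 7 with a value and Ephb3 among them, had a median of -0.01.

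Other markers of the crypt base and of reserve stem cells differed in both directions, with 2 of 14 higher and 2 lower by more than 2-fold and a median of -0.17. Tert, the catalytic subunit of telomerase, had a signal of 732 against 128 (log2 ratio -2.52), but its other probe gave only a bound that does not exceed 1-fold. Rgmb, a co-receptor of bone morphogenetic proteins, had 216 against 99.6 (log2 ratio -1.12) and was past 2-fold in 2 of 8 other settings. Reg4, a secreted lectin of deep crypt secretory cells in the colon, was higher at 54128 against 158383 (log2 ratio 1.55). Prom1, the gene of the membrane protein CD133, was higher at 612 against 1474 (log2 ratio 1.27), but its dimmer probe, at 0.80, was not past 2-fold. Tert, Reg4 and Prom1 were past 2-fold in all 8 other settings. Lrig1, an inhibitor of ErbB receptors that marks crypt stem cells, was named after its values were seen and had 19437 against 11093 (log2 ratio -0.81). The genes of this list thus did not all move in the same direction, with 10 of 14 below 0 and, past 1.5-fold, 5 lower and 2 higher.

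**Figure D4:**
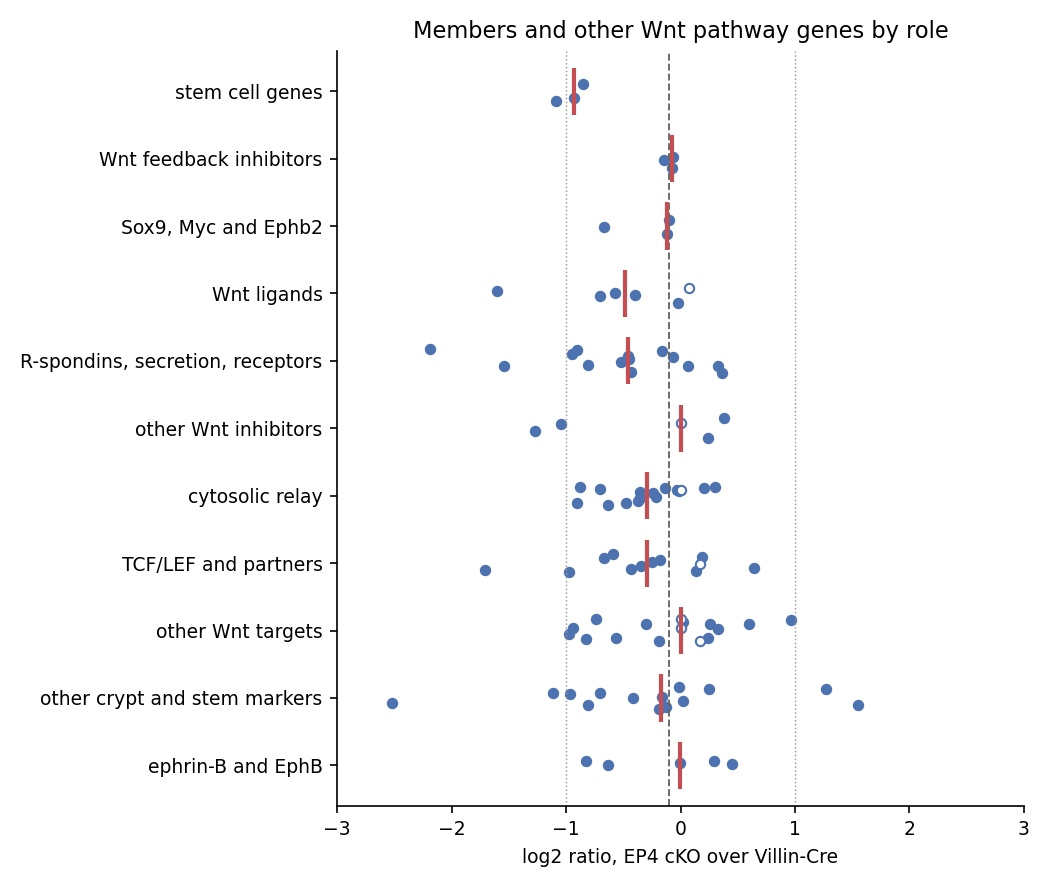
Log2 ratio of EP4 cKO over Villin-Cre for each gene of the member groups and the Wnt pathway lists, with list medians in red, the median of all genes (-0.10) dashed and 2-fold dotted; open circles are bounds for dim probes. The stem cell genes lie near -0.93, the feedback inhibitors near -0.08 and Sox9, Myc and Ephb2 between -0.67 and -0.10, whereas the other Wnt pathway lists hold genes on both sides of 0, and scaling to the E1A spike-in spots moves the ratios measured on both arrays up by 1.04.

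Markers of dividing cells had a median below 0, but not with E1A scaling, where it was 0.43. Of 10 genes, 8 were below 0, against 63.0% of all genes well above background on both arrays, and 1 was lower by more than 2-fold, with a median of -0.62 and a summed signal of 99524 in the sample labelled Villin-Cre and 70836 in that labelled EP4 cKO. Mki67, a marker of cells in the cycle, had a signal of 22683 against 10404 (log2 ratio -1.12), no longer past 2-fold with scaling to the 75th percentile, the trimmed mean over all spots or E1A scaling. The genes of this list above 0 were Pcna (0.34) and Mcm2 (0.14), both named after their values were seen, so the list did not move as a whole. What part of the stem cell gene differences goes with that of dividing cells was not tested.

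Markers of the whole epithelium were not lower as a group. Their median over 9 genes was 0.10, with a range from -0.25 to 0.56, and the log2 ratio of their summed signals was 0.19. The summed signal of the stem cell genes had a log2 ratio of -0.90 and that of the feedback inhibitors -0.08. The stem cell genes thus had lower ratios than every one of the 9 epithelial markers, a difference within the arrays that a single scaling factor does not change.

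Markers of surface colonocytes included 3 of 8 genes higher by more than 2-fold and 0 lower, and their median was 0.25. Slc9a3, a sodium and proton exchanger, had a signal of 1661 against 18703 (log2 ratio 3.49). Krt20, a keratin of the crypt top, had 146575 against 510711 (log2 ratio 1.80). Aqp8, a water channel, had 236302 against 473610, just past 2-fold. All were past 2-fold in 8 of 8 other settings, and the 5 remaining genes of the list lay between -0.75 and 0.41.

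Cells of the stroma can carry RNA of Smoc2 and of several pathway genes. Of 7 fibroblast markers, 5 were lower by more than 2-fold, with a median of -4.66 over the 6 with a value (-2.71 with normexp and quantile normalization). After Dcn, Col1a2 (a chain of type I collagen) had a signal of 3613 against 111 (log2 ratio -5.03). Col3a1 (type III collagen) had 1621 against 39.9, the latter not well above background, and was at least 28-fold lower under the trimmed mean scaling. This bound, a log2 ratio of -4.81, was -2.97 with normexp and quantile normalization and -3.77 with E1A scaling. Col6a3 (type VI collagen), named after its values were seen as the 1 gene of the list with a value that was not past 2-fold, had 206 against 164.

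Smooth muscle markers did not move together, with a median of 0.38 over 5 of 6 genes, and Cnn1 (calponin) was the 1 gene past 2-fold at 479 against 72.3 (log2 ratio -2.73). Myh11, the smooth muscle myosin and also named after its values were seen, was dim on both arrays. Leukocyte markers had values for 5 of 7 genes, with a median of 0.19 over the 4 well above background on both arrays, and endothelial markers had a median of -0.05 over 2 of 4. None of these was past 2-fold, but 1 leukocyte marker was with scaling to the 75th percentile, loess and the trimmed mean over all spots, and 2 were with E1A scaling, as was 1 endothelial marker. Without the filter on dim probes, 1 leukocyte and 1 endothelial marker were lower past 2-fold. Summed signals of the leukocyte markers were 57792 and 75178, mostly from Itgam (49347 and 68598, named after its values were seen). Those of the endothelial markers were 1045 and 1067. The part of these cells in the ratios of the members was not tested.

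**Figure D5:**
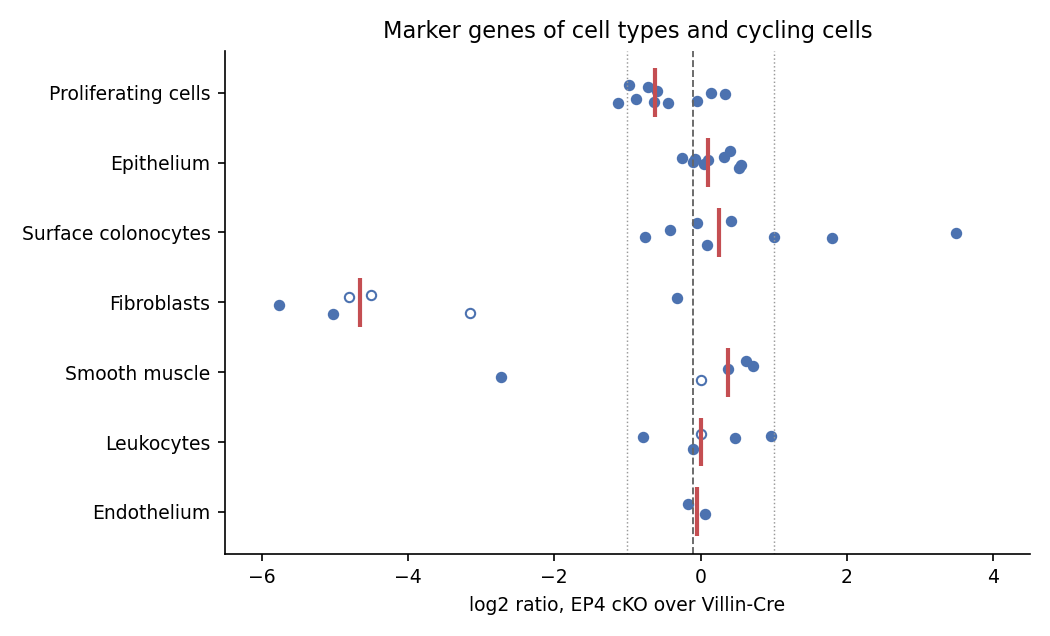
Log2 ratio of EP4 cKO over Villin-Cre for markers of dividing cells and of cell types, with list medians in red, the median of all genes (-0.10) dashed and 2-fold dotted; open circles are bounds for dim probes. Fibroblast markers lie far to the left at a median of -4.66 (-2.71 with normexp), dividing cells at -0.62 and the epithelium at 0.10, and both of the latter lie above 0 with scaling to the E1A spike-in spots.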

How the data were processed

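Whole colon RNA of each genotype was hybridized with Cy3 to a SurePrint G3 Mouse GE v2 array (Agilent). The authors deposited the scanner intensity of each spot, processed by Feature Extraction (12.0.3.1 per the file headers, 11.5.1.1 in the submitters' processing notes), with background subtracted and not scaled between arrays. The deposited intensities were scaled here to a trimmed mean of 2500 without 2% of probes at each end, as in the study's methods (trimmed means 724 and 931 before scaling). Control spots and outlier spots (147 and 126) were left out, and spots of a probe were averaged. A probe well above background on 1 array gave a bound against the floor of the other array, on which it was dim (125 for Villin-Cre and 57.8 for EP4 cKO), set to a log2 ratio of 0 where the bound did not exceed 1-fold. The probe with the highest mean signal stood for a gene. RefSeq accessions matched 32989 of 56593 probes (58.3%) to genes of GRCm38.p6, while the array design refers to an older assembly. An array gives no depth, and the number of arrays limits the precision.

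The members and lists were chosen with earlier results of these data known. The genes named are all members, Ctnnb1, Ccnd1, Ptger4 and, in each other list, up to 3 genes past 2-fold in each direction, and any other gene is marked as named after its values were seen. Alternatives were scaling to the 75th percentile, normexp (offset 50, on the median signal of each spot) with quantile normalization, loess (span 0.3), a trimmed mean over all spots, other filters on dim probes, averaging the probes of a gene, thresholds of 1.5-fold and 3-fold and, added after seeing the data, E1A scaling. The steps were tested on simulated data. The tools were limma 3.58.1 in R 4.3.3 and, in Python 3.11.15, matplotlib 3.10.9, statsmodels 0.14.6, pandas 2.3.3 and numpy 2.4.6.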

Additional observations from a re-analysis of the deposited data

How the results depend on the processing

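No paired analysis was possible because there was 1 array per genotype, and for the same reason no array could be left out. The count of 1 member past 2-fold became 0 with scaling to the 75th percentile, normexp and quantile normalization, loess, the trimmed mean over all spots, E1A scaling and a threshold of 3-fold, and 4 at 1.5-fold. The median of the members (-0.15) was 0.011 with the 75th percentile, -0.48 with the mean of all probes and 0.90 with E1A scaling. With the 75th percentile, list medians moved to -0.33 for Wnt ligands, -0.30 for R-spondins, Wnt secretion and receptors, -0.14 for the cytosolic relay, -0.14 for TCF/LEF factors, -0.015 for other crypt and stem cell markers and 0.15 for ephrin-B ligands and EphB receptors. With E1A scaling these were 0.56, 0.59, 0.74, 0.75, 0.87 and 1.04, and other Wnt targets stood at 0.80. With normexp, Wnt ligands stood at -0.11 and receptors at -0.29, and after loess Wnt ligands stood at 0.034. Without a filter on dim probes, medians were -1.02 for Wnt ligands, -0.81 for receptors, -1.13 for secreted and membrane inhibitors, -0.30 for other Wnt targets and -0.63 for ephrin-B ligands and EphB receptors. With probes well above background on both arrays only, inhibitors stood at -0.40 and other Wnt targets at -0.18. In all, 33 of these values moved by more than the spread between probes or changed their count and 33 did not, and the causes were not tested. These are not separate checks, since a single scaling factor shifts all ratios measured on both arrays by the same amount. With the 75th percentile this amount lay just past the spread between probes (0.1567), and the filters on dim probes left the members unchanged. The median of all genes shifted by 0.10 with the 75th percentile, normexp and the trimmed mean over all spots, by 0.13 after loess, by -0.27 without a filter and by 0.98 with E1A scaling. Genes lower and higher past 2-fold made up 2.69% and 4.11% with normexp, 4.96% and 7.79% after loess, 6.53% and 6.17% with the trimmed mean over all spots and 31.7% and 5.12% without a filter. Signal over background left 13 of 19 Wnt ligands and 9 of 14 secreted and membrane inhibitors without a value, and variation between mice was not measured.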
